A study of Mus musculus with 30 samples.

Results

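The transcripts followed here are those of 10 genes of the cadherin switch and of the epithelial-to-mesenchymal transition (EMT), read at 5 stages of the differentiation of mouse embryonic stem cells (ESCs) towards neuromesodermal progenitors (NMPs), in wildtype and Nr6a1-/- cells. They were chosen by name, as 10 of the 54134 rows of the count table, and all 10 were among the 12149 genes that passed the filter on low counts. Cdh1 (E-cadherin), Epcam (an epithelial adhesion molecule) and Esrp1 (a splicing regulator of epithelial cells) are the epithelial genes. Cdh2 (N-cadherin) and Vim (the intermediate filament protein vimentin) are the genes usually gained in the transition, and Snai1, Snai2, Zeb1, Zeb2 and Twist1 encode its transcriptional regulators.

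The study asked what the orphan nuclear receptor Nr6a1 contributes to the timing and fate of axial progenitors. ES-Bruce4 cells were cultured in N2B27 medium with FGF2 for 48 h (d2), then with FGF2 and the Wnt pathway agonist CHIR for 12 h (d2.5) or 24 h (d3). Cells at d3 were kept for 24 h more in FGF2 and CHIR (d4), or in FGF2, CHIR and the TGF-beta family ligand Gdf11 (d4G). Each stage had 3 wildtype and 3 Nr6a1-/- libraries, 30 in all. The Nr6a1-/- cells are 1 clone with a CRISPR/Cas9 deletion within exon 4 of each allele, so genotype and clone cannot be told apart. ESCs of this line were maintained on mouse embryo fibroblast feeders and depleted of them before differentiation.

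Epithelial cells hold to their neighbours through Cdh1, and cells that leave an epithelium commonly lose Cdh1 and gain Cdh2. Snail and Zeb proteins are known as repressors that bind E-box motifs in epithelial promoters, that of Cdh1 among them. In the gastrulating embryo the epiblast carries Cdh1, and cells that pass through the primitive streak to become mesoderm switch to Cdh2 and vimentin, while the neural plate also gains Cdh2.

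Libraries held 1570714 to 3688197 counts, so that 3 counts, the limit that a count of 0 allows, correspond to between 0.829 and 1.91 CPM (counts scaled to 1000000 per library). The Nr6a1 transcript itself ranged from 17.2 to 186 CPM over wildtype groups and from 18.8 to 314 CPM over Nr6a1-/- groups. Reads of these libraries come from the 3′ ends of transcripts, outside the deleted part of exon 4, so this level does not check the genotype. The NMP markers T, Sox2, Nkx1-2 and Cdx2 summed to 122 to 146 CPM in wildtype and 146 to 158 CPM in Nr6a1-/- libraries at d2. At d3 they summed to 592 to 624 CPM in wildtype and 851 to 992 CPM in Nr6a1-/- libraries. Sox2 made up most of the d2 sums, at means of 126 and 145 CPM, and was lower at d3, at 78.5 and 75.2 CPM. The d4 wildtype library of replicate 2 stood apart. Its 5 epiblast markers (Pou5f1, Fgf5, Utf1, Otx2 and Dnmt3b) summed to 642 CPM, against 90.2 and 77.7 CPM in the other d4 wildtype libraries, while its NMP marker sum of 244 CPM lay beside their 245 and 252 CPM. Values of the 10 genes whose call changed, or which moved by over 1.5 times, without this library are given both ways. The labels give 4 d4 libraries (those of wildtype cells and Nr6a1-/- replicate 1) the same index as a d4G library. The other 2 (Nr6a1-/- replicates 2 and 3) have the same index as a d3 library. Libraries with the same index cannot have shared a pool, and the pools themselves are not given. A difference between pools thus cannot be told apart from the Gdf11 responses or from the Nr6a1-/- step from d3 to d4. For the wildtype step from d3 to d4 the labels show no shared index and leave the pools unknown.

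All 3 epithelial genes decreased over the course in both genotypes. Cdh1 in wildtype libraries stood at 249, 225 and 254 CPM at d2, at 151, 149 and 134 CPM at d2.5, and at 103, 91.6 and 88.0 CPM at d3. In Nr6a1-/- libraries it stood at 235, 218 and 256 CPM at d2, at 139, 160 and 135 CPM at d2.5, and at 113, 95.8 and 118 CPM at d3. The genotypes overlapped at each of these stages, and the 3 stages did not overlap with each other within either genotype. From d2 to d2.5 Cdh1 fell by 0.75 on the log2 scale in wildtype cells (standard error, SE, 0.156, edgeR FDR 4.30e-04) and by 0.71 in Nr6a1-/- cells (SE 0.153, edgeR FDR 5.79e-04). The FDR is the Benjamini-Hochberg adjusted p of edgeR's quasi-likelihood test over all 12149 genes, and values below 0.05 were called. Where an FDR is given as a range or limit over alternatives, the adjusted p of DESeq2 is among the values, also under the edgeR label. From d3 to d4 Cdh1 fell to 0.372-fold in wildtype and to 0.221-fold in Nr6a1-/- cells (edgeR FDR 2.62e-07 and 9.57e-11). Without d4 wildtype replicate 2 the wildtype value was 0.238-fold (edgeR FDR 8.37e-14), and the interaction of genotype with this step went from -0.75 (edgeR FDR 0.106) to -0.12 (edgeR FDR 0.815). The step from d2.5 to d3 was called in wildtype (-0.62, edgeR FDR 0.0104) and not in Nr6a1-/- cells (-0.41, edgeR FDR 0.0790), and without d3 wildtype replicate 3 it was not called in wildtype either (edgeR FDR 0.0617 at most over 11 alternatives).

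**Figure D1:**
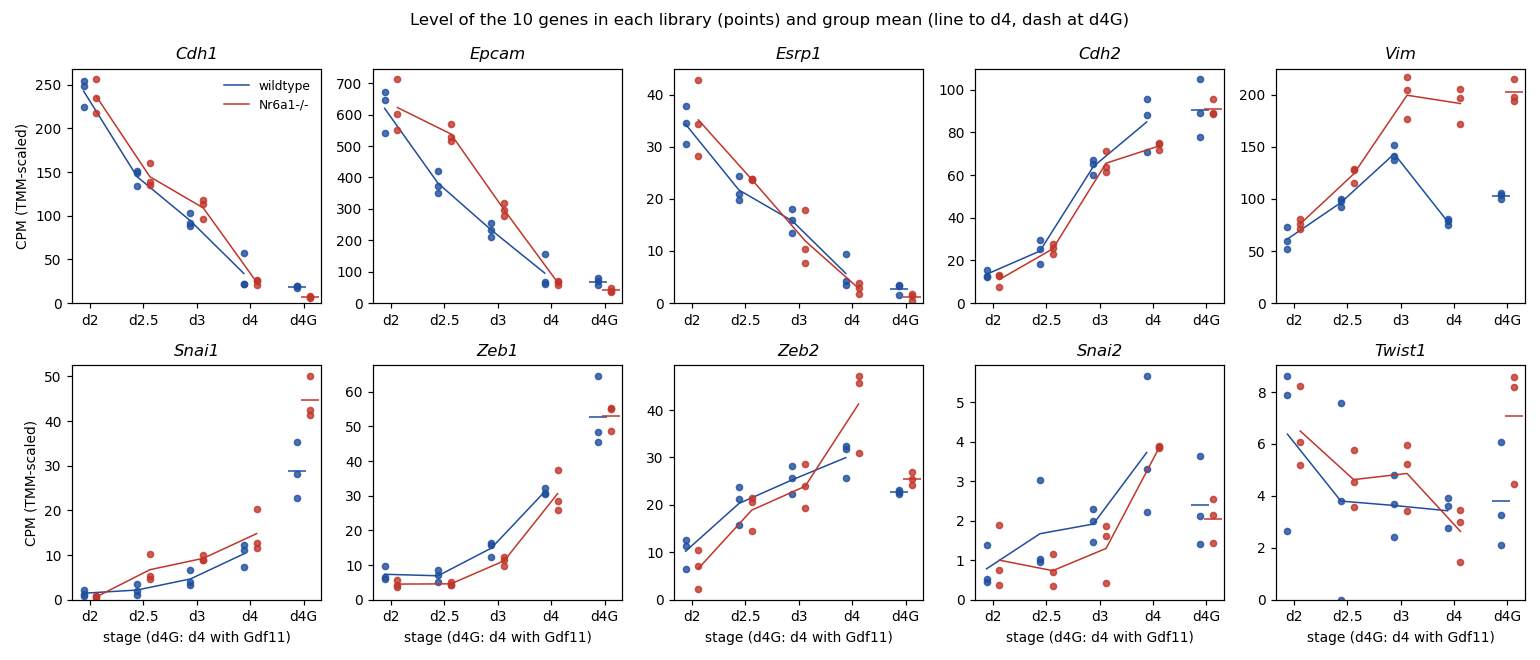
Level of each of the 10 genes in TMM-scaled CPM (linear axes from 0), by stage, with 1 point per library, wildtype in blue and Nr6a1-/- in red; lines join group means up to d4 and dashes mark the means at d4G (n = 3). Cdh1, Epcam and Esrp1 decline and Cdh2 climbs along the course in both genotypes, and Zeb1 climbs after d2.5. The 2 genotypes separate in Vim at d3, d4 and d4G.

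Epcam lies on chromosome 17 at 87635979 to 87651129 (GRCm38, plus strand). A promoter window from RefSeq (GRCm38.p6, 250 bases before to 50 after the annotated start) was given for 5 of the 10 genes (Epcam, Snai1, Vim, Zeb2 and Twist1). The window of Epcam, the epithelial member with one, is shown because the E-box CACCTG, the site that Snail and Zeb proteins are known to bind, occurs in it 2 times when both strands are searched, here in capitals and beginning 187 and 19 bases before the start. Of 32851 windows of this length, 20.2% held the motif at least once and 2.88% at least 2 times, and no match was present in the windows of Vim, Zeb2 and Twist1.
Epcam, chr17:87635729-87636028, plus strand: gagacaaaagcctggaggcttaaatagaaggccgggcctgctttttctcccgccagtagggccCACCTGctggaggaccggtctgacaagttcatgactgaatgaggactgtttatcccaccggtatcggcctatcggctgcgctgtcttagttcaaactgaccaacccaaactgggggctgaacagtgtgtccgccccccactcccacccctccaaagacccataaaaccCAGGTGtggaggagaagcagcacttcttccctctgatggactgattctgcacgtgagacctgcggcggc

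Epcam transcripts in wildtype libraries were at 541, 673 and 646 CPM at d2, 373, 351 and 421 CPM at d2.5 and 211, 232 and 254 CPM at d3. In Nr6a1-/- libraries they were at 603, 552 and 713 CPM at d2, 571, 530 and 515 CPM at d2.5 and 276, 295 and 319 CPM at d3. The genotypes overlapped at d2, and every Nr6a1-/- library lay above every wildtype library at d2.5 and d3. These differences did not pass the test at d2.5 (0.50, SE 0.168, edgeR FDR 0.0705) or at d3 (0.35, SE 0.174, edgeR FDR 0.216). Each passed when the libraries compared were fitted alone or when no filter on low counts was applied (edgeR FDR 6.06e-06 to 0.222 at d2.5 and 0.00596 to 0.450 at d3 over 11 alternatives). Within wildtype cells Epcam fell at each step, by 0.70, 0.71 and 1.26 on the log2 scale (edgeR FDR 0.00189, 0.00467 and 2.24e-06). In Nr6a1-/- cells the first step was not called (-0.21, edgeR FDR 0.382), and the following ones were -0.86 and -2.17 (edgeR FDR 2.74e-04 and 5.22e-11). The last wildtype value was -1.85 without d4 wildtype replicate 2 (edgeR FDR 4.31e-13). The interaction test of the d2 to d3 change was not passed (0.34, SE 0.239, edgeR FDR 0.564).

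Esrp1 was measured at lower counts. Its wildtype group means were 34.3 ± 3.63, 21.7 ± 2.41, 15.8 ± 2.33, 5.69 ± 3.22 and 2.75 ± 0.978 CPM at d2, d2.5, d3, d4 and d4G (SD, n = 3), and its Nr6a1-/- means were 35.2 ± 7.34, 23.7 ± 0.108, 11.9 ± 5.31, 2.84 ± 1.10 and 1.16 ± 0.626 CPM. Libraries of the 2 genotypes overlapped at every stage, and no genotype difference was called, the value nearest the threshold being -1.07 at d4 (SE 0.423, edgeR FDR 0.0728, or 0.0367 to 0.557 over 11 alternatives), which was -0.47 without d4 wildtype replicate 2 (edgeR FDR 0.557). Esrp1 also fell from d2 to d2.5 in both (-0.67 and -0.58, edgeR FDR 0.0233 and 0.0361), a call lost without d2 replicate 3 or d2.5 replicate 1 or 3 in wildtype cells and in 6 of 11 alternatives in Nr6a1-/- cells, among them DESeq2 and the removal of d2 replicate 2 or 3 or of any d2.5 library (edgeR FDR up to 0.106 and 0.186). From d2.5 to d3 it fell in Nr6a1-/- cells (-0.97, edgeR FDR 0.00407, or 0.0538 without d3 replicate 1), and its wildtype value was -0.45 (edgeR FDR 0.271). From d3 to d4 Esrp1 fell in both, to 0.381-fold in wildtype and 0.238-fold in Nr6a1-/- cells (edgeR FDR 5.04e-04 and 6.84e-05), and the wildtype value was 0.251-fold without d4 wildtype replicate 2 (edgeR FDR 2.52e-05). At d4G the Nr6a1-/- libraries held 1, 2 and 4 counts, so a difference at that stage was hardly detectable at this depth.

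Cdh2 rose as Cdh1 fell, and the wildtype and Nr6a1-/- libraries overlapped at all 5 stages. In wildtype libraries it was at 15.7, 12.7 and 12.0 CPM at d2, at 29.5, 25.4 and 18.2 CPM at d2.5, at 65.2, 59.8 and 66.8 CPM at d3 and at 95.5, 71.0 and 88.0 CPM at d4. In Nr6a1-/- libraries it was at 7.53, 13.1 and 12.5 CPM at d2, at 23.0, 25.6 and 27.5 CPM at d2.5, at 63.8, 71.4 and 61.4 CPM at d3 and at 74.9, 74.5 and 71.6 CPM at d4. Each of the first 3 stages was separate from the next in both genotypes. The rise from d2 to d2.5 was 1.82-fold in wildtype and 2.25-fold in Nr6a1-/- cells (edgeR FDR 0.00137 and 1.53e-05), and from d2.5 to d3 it was 2.61-fold and 2.57-fold (edgeR FDR 4.00e-08 and 4.78e-09). From d3 to d4 the wildtype rise of 1.32-fold passed the test (edgeR FDR 0.0229) and the Nr6a1-/- value of 1.13-fold did not (edgeR FDR 0.374). The wildtype call was lost without d3 replicate 1 or 2 or without d4 replicate 1 or 3 (edgeR FDR 0.00414 to 0.135 over 11 alternatives). Genotype differences in Cdh2 lay between -0.26 and 0.05 on the log2 scale over the 5 stages (edgeR FDR 0.305 to 1.00), and that at d4 was -0.33 without d4 wildtype replicate 2 (edgeR FDR 0.0918). An annotated antisense gene, Gm15485, overlaps Cdh2, and whether the counting used strand is not given in the sources used here.

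The count of Cdh2 over that of Cdh1 within a library needs no scaling factor. On the log2 scale, its wildtype mean moved from -4.15 ± 0.209 at d2 to -2.58 ± 0.263 at d2.5 and -0.56 ± 0.141 at d3, and its Nr6a1-/- mean from -4.43 ± 0.451 to -2.50 ± 0.194 and -0.73 ± 0.272 (SD, n = 3). Libraries of both genotypes were mixed at these stages. At d4 the wildtype libraries gave 2.09, 0.31 and 1.98 and the Nr6a1-/- libraries 1.52, 1.86 and 1.48. The low wildtype value is that of replicate 2. At d4G the wildtype libraries gave 2.35, 2.42 and 1.97 and the Nr6a1-/- libraries 3.58, 3.99 and 3.40. All 3 Nr6a1-/- values at d4G were above all 3 wildtype values, with a difference of 1.41 between the means (2-sided exact permutation test, p = 0.1, the smallest that 3 against 3 libraries allow).

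**Figure D2:**
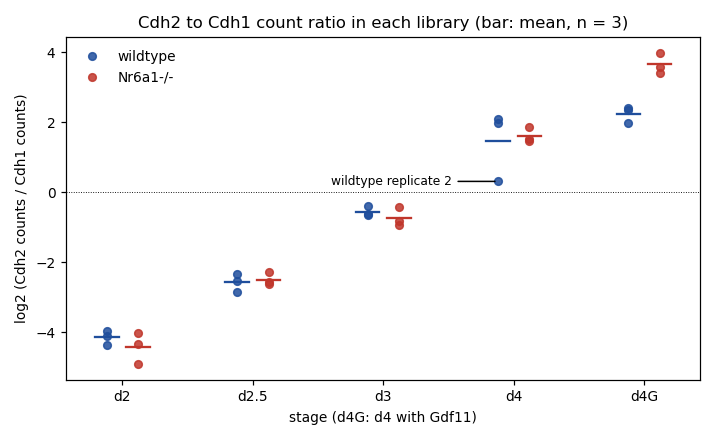
Log2 ratio of the Cdh2 count to the Cdh1 count in each library by stage, wildtype in blue and Nr6a1-/- in red, with a bar at each mean (n = 3); the value compares libraries with each other, not the levels of the 2 genes. The genotypes overlap from d2 to d4, the d4 wildtype replicate 2 lies at 0.31, and at d4G the Nr6a1-/- libraries lie between 3.40 and 3.99, above the wildtype libraries at 1.97 to 2.42.

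Snai1, the regulator that acts as mesoderm forms in the embryo, was near the detection floor at d2 and higher at the later stages. Its gene lies on chromosome 2 at 167538195 to 167542814 (GRCm38, plus strand), and its promoter window is shown because Snai1 is the regulator called between genotypes. The window held the E-box motif CACCTG, in capitals, 1 time on either strand, beginning 126 bases before the start.
Snai1, chr2:167537945-167538244, plus strand: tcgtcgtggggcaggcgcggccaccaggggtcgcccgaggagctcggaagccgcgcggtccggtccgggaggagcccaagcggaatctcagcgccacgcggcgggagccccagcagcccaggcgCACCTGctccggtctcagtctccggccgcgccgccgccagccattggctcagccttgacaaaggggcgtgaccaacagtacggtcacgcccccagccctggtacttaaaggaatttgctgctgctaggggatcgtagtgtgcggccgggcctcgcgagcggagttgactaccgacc

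Snai1 in wildtype libraries was counted 2, 4 and 4 times at d2, 2, 4 and 7 times at d2.5 and 14, 7 and 10 times at d3. In Nr6a1-/- libraries it was counted 1, 2 and 2 times at d2, 12, 29 and 15 times at d2.5 and 22, 21 and 27 times at d3. The d2 libraries of both genotypes were thus close to the floor of 3 counts, in CPM with every Nr6a1-/- library below every wildtype library (edgeR FDR 0.564), and at d2.5 and d3 every Nr6a1-/- library was above every wildtype library, in CPM as well. The d2.5 means were 2.18 ± 1.30 CPM for wildtype and 6.71 ± 3.01 CPM for Nr6a1-/- libraries (SD, n = 3), a difference of 1.63 on the log2 scale (SE 0.442, edgeR FDR 0.0188). At d3 they were 4.66 ± 1.86 and 9.29 ± 0.660 CPM (1.01, SE 0.345, edgeR FDR 0.0548, or 0.0331 to 0.209 over 11 alternatives, 3 of which called it). Within Nr6a1-/- cells Snai1 rose 9.41-fold from d2 to d2.5, from 5 to 56 counts over the group (edgeR FDR 1.66e-05), and within wildtype cells it rose 2.27-fold from d3 to d4 (edgeR FDR 0.00776, and up to 0.0585 without d3 replicate 2 or 3). At d4 the libraries overlapped, with means of 10.3 ± 2.54 and 14.8 ± 4.81 CPM (edgeR FDR 0.211). The d2.5 call was lost in a fit of the libraries compared alone and without wildtype replicate 1, wildtype replicate 2 or Nr6a1-/- replicate 2 (edgeR FDR 0.00610 to 0.167, log2 fold change 1.20 to 2.16 over 11 alternatives). The change from d2 to d3 did not pass the interaction test (2.02, SE 0.862, edgeR FDR 0.273).

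Gdf11 was followed by higher Snai1 in both genotypes. At d4G the wildtype libraries were at 35.4, 22.7 and 28.2 CPM and the Nr6a1-/- libraries at 50.0, 41.4 and 42.5 CPM. These were above all d4 libraries of the same genotype, with a response of 2.71-fold in wildtype (edgeR FDR 8.36e-06) and 3.05-fold in Nr6a1-/- cells (edgeR FDR 7.91e-07), whose difference did not pass the interaction test (0.17, SE 0.329, edgeR FDR 0.876). Snai1 at d4G was 1.56-fold higher in Nr6a1-/- cells (SE 0.199 on the log2 scale, edgeR FDR 0.0373). The call at d4G was lost with DESeq2 and without wildtype replicate 2 or 3 or any Nr6a1-/- library (edgeR FDR 0.0220 to 0.246 over 11 alternatives, log2 fold change 0.48 to 0.81). The 5 neural crest markers Sox10, Foxd3, Tfap2a, Tfap2b and Ets1 summed to 40.5 to 47.5 CPM in wildtype and 63.5 to 75.0 CPM in Nr6a1-/- libraries at d4G. Ets1 made up 42.5 and 68.0 CPM of these on average, with Foxd3 at 0. The others were near the floor and not higher in Nr6a1-/- libraries. Sox10 averaged 1.54 CPM in wildtype and 0.745 CPM in Nr6a1-/- libraries, Tfap2a 0.606 and 0.355 CPM, and Tfap2b 0.310 and 0 CPM. The part of the 5 markers in the Snai1 difference was not tested.

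Vim was higher in Nr6a1-/- cells from d2.5 onwards, and its difference at d4 had the smallest FDR of the 10 genes at any stage. Wildtype libraries were at 97.7, 99.6 and 92.1 CPM at d2.5, at 152, 141 and 137 CPM at d3, at 80.6, 74.9 and 79.3 CPM at d4 and at 106, 104 and 99.5 CPM at d4G. Nr6a1-/- libraries were at 115, 128 and 129 CPM at d2.5, at 177, 205 and 217 CPM at d3, at 197, 172 and 206 CPM at d4 and at 198, 194 and 215 CPM at d4G. Every Nr6a1-/- library lay above every wildtype library of its stage from d2.5 onwards. The difference was 1.28-fold at d2.5 (edgeR FDR 0.0270), 1.39-fold at d3 (edgeR FDR 7.05e-04), 2.46-fold at d4 (edgeR FDR 1.34e-12) and 1.97-fold at d4G (edgeR FDR 3.63e-09). At d2 the libraries overlapped (1.24-fold, edgeR FDR 0.122, or 0.0199 without wildtype replicate 1). The calls at d3, d4 and d4G stayed called in all 11 alternatives of each stage, and that at d2.5 was lost without wildtype replicate 1 or 3 or Nr6a1-/- replicate 2 or 3 (edgeR FDR 0.0249 to 0.113).

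The course of Vim also differed between genotypes after d3. In wildtype cells Vim rose from d2 to d3 and then fell by 0.87 on the log2 scale from d3 to d4 (SE 0.102, edgeR FDR 3.19e-08), whereas the Nr6a1-/- value from d3 to d4 was -0.06 (SE 0.0946, edgeR FDR 0.713). The difference between these changes was 0.82 (SE 0.139, edgeR FDR 1.60e-04) and was called in all 17 alternatives. Gdf11 was followed by a 1.32-fold rise in wildtype cells (edgeR FDR 0.00330) and by a value of 1.06-fold in Nr6a1-/- cells (edgeR FDR 0.630), and the difference between these responses did not pass the interaction test (-0.32, SE 0.141, edgeR FDR 0.261). Embryonic fibroblasts, the feeder cells, are rich in vimentin. Their 8 markers (Col1a1, Col1a2, Col3a1, Dcn, Lum, Postn, Thy1 and Fbln2) summed to 40.8 to 42.0 CPM in wildtype and 40.5 to 42.9 CPM in Nr6a1-/- libraries at d4, and to 52.6 to 62.1 and 52.8 to 61.8 CPM at d4G. Their sum was higher in Nr6a1-/- libraries at d2 (39.5 to 43.4 against 22.3 to 27.1 CPM), at d2.5 (40.1 to 42.7 against 26.8 to 35.7 CPM) and at d3 (69.5 to 82.1 against 57.1 to 64.4 CPM). Lum was at 0 in every group except for 2 counts in Nr6a1-/- libraries at d4. The fibroblast markers did not all move 1 way. At d3 Col1a2 averaged 30.8 CPM in wildtype and 44.5 CPM in Nr6a1-/- libraries, and Col1a1 10.7 and 4.91 CPM. At d4 Col1a2 averaged 12.6 and 7.52 CPM, Thy1 6.88 and 2.56 CPM, and Fbln2 13.4 and 22.0 CPM. Presomitic mesoderm markers (Tbx6, Msgn1, Mesp2 and Meox1) summed to 94.5 to 113 CPM in wildtype and to 387 to 414 CPM in Nr6a1-/- libraries at d4. At d4G they summed to 71.2 to 88.5 and 150 to 162 CPM. The members differed at d4, where Meox1 averaged 4.05 CPM in wildtype and 201 CPM in Nr6a1-/- libraries. Tbx6 averaged 95.8 and 191 CPM, Mesp2 1.30 and 4.71 CPM, and Msgn1 3.02 and 2.26 CPM. Neural markers (Sox1, Pax6, Irx3 and Olig2) went the other way, with 16.8 to 21.8 against 2.17 to 3.87 CPM at d4. Irx3 made up most of the wildtype sum, at means of 13.8 CPM in wildtype and 0.912 CPM in Nr6a1-/- libraries. The others were low in both genotypes. Pax6 averaged 3.52 and 1.93 CPM, Sox1 1.87 and 0.448 CPM, and Olig2 0.714 and 0 CPM. The part of these markers in the Vim and Snai1 differences was not tested, and in bulk samples fewer cells of a type and less RNA per cell cannot be told apart.

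Zeb1 and Zeb2 encode related zinc finger repressors and followed different courses. Zeb1 in wildtype libraries was at 15.9, 12.4 and 16.4 CPM at d3, at 32.3, 30.7 and 30.6 CPM at d4 and at 48.4, 64.6 and 45.5 CPM at d4G, and in Nr6a1-/- libraries at 12.4, 9.84 and 11.5, then 26.0, 37.3 and 28.5, then 48.6, 55.4 and 54.9 CPM. These 3 stages did not overlap within either genotype. The step from d2 to d2.5 was not called for Zeb1, at 0.916-fold in wildtype and 1.03-fold in Nr6a1-/- cells (edgeR FDR 0.783 and 0.939). Zeb1 rose 2.15-fold from d2.5 to d3 and 2.08-fold from d3 to d4 in wildtype cells (edgeR FDR 0.00240 and 3.12e-05), 2.44-fold and 2.69-fold in Nr6a1-/- cells (edgeR FDR 4.67e-04 and 3.74e-07), and 1.70-fold and 1.74-fold with Gdf11 (edgeR FDR 1.28e-04 and 2.64e-04). All 3 Nr6a1-/- libraries at d2 were below the wildtype libraries (4.52 ± 0.991 against 7.35 ± 2.02 CPM, SD, n = 3), a difference that did not pass the test (-0.76, SE 0.297, edgeR FDR 0.163), and at d4 and d4G the genotypes overlapped. Gm10125 and Gm16147 overlap Zeb1 on the other strand.

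Zeb2 rose earlier, from 10.2 ± 3.25 CPM at d2 to 20.3 ± 4.12 CPM at d2.5 in wildtype cells (SD, n = 3; 1.99-fold, edgeR FDR 0.00629) and from 6.58 ± 4.07 to 18.9 ± 3.75 CPM in Nr6a1-/- cells (2.97-fold, edgeR FDR 7.27e-05). The wildtype call was lost without d2 wildtype replicate 1 (edgeR FDR at most 0.0552 over 11 alternatives). From d3 to d4 it rose in Nr6a1-/- cells, from 24.0 ± 4.68 to 41.3 ± 8.95 CPM (1.72-fold, edgeR FDR 0.00395), and its wildtype value was 1.18-fold (edgeR FDR 0.474). The difference between these changes was not called (0.55, SE 0.295, edgeR FDR 0.300). At d4 the Nr6a1-/- libraries were at 47.2, 31.0 and 45.6 CPM and the wildtype libraries at 31.8, 25.7 and 32.4 CPM, which overlap (1.39-fold, edgeR FDR 0.0845), and the difference was called only when Nr6a1-/- replicate 2 was left out (lowest edgeR FDR 0.0319). With Gdf11 Zeb2 fell in Nr6a1-/- cells, by 0.69 on the log2 scale to 25.6 ± 1.41 CPM (SE 0.212, edgeR FDR 0.0189), a call lost without d4 replicate 1 or 3 or d4G replicate 1 or 2 of that genotype (edgeR FDR 0.00259 to 0.0989). The wildtype value was -0.39 (edgeR FDR 0.174). Zeb2os is annotated on the other strand of Zeb2, and Gm26663 on that of Esrp1.

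Snai2 and Twist1 stayed low. Snai2 group means ran from 0.736 to 3.87 CPM over the 10 groups, with 1 to 13 counts per library, and Twist1 group means ran from 2.63 to 7.07 CPM, with 0 to 25 counts per library. Neither was called between genotypes at any stage. Snai2 was counted 4, 1 and 5 times at d3 and 9, 8 and 9 times at d4 in the Nr6a1-/- libraries, a rise from d3 to d4 (1.51, SE 0.519, edgeR FDR 0.0290) that was lost in 7 of 10 alternatives, among them no filter on low counts, DESeq2 and the removal of d3 replicate 1 or 2 or of any d4 Nr6a1-/- library (edgeR FDR up to 0.143). Twist1 in Nr6a1-/- libraries was at 3.47, 1.45 and 2.98 CPM at d4 and at 8.18, 4.46 and 8.58 CPM at d4G. The d4G libraries were all above the d4 libraries, with a log2 change of 1.43 (SE 0.521, edgeR FDR 0.0516) that was called in 6 of 11 alternatives.

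Counted over the steps of the course, the 10 genes were called in 6, 5 and 7 of 10 cases in wildtype cells. From d2 to d2.5, 3 of them rose (Cdh2, Vim and Zeb2) and 3 fell (Cdh1, Epcam and Esrp1), in a comparison in which 25.4% of all tested genes were called. From d2.5 to d3, 3 rose (Cdh2, Vim and Zeb1) and 2 fell (Cdh1 and Epcam), beside 11.5% of all genes. From d3 to d4, 3 rose (Cdh2, Snai1 and Zeb1) and 4 fell (Cdh1, Epcam, Esrp1 and Vim), beside 21.1%. In Nr6a1-/- cells, 4 rose and 2 fell from d2 to d2.5 (24.1% of all genes called), 3 rose and 2 fell from d2.5 to d3 (15.9%), and 3 rose and 3 fell from d3 to d4 (25.9%). The response to Gdf11 comprised 3 genes that rose and 2 that fell in wildtype cells (28.8%) and 2 that rose and 3 that fell in Nr6a1-/- cells (18.0%). The step from d3 to d4 and the Gdf11 response of a genotype share its d4 libraries.

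Between genotypes, 0 of the 10 genes were called at d2 by edgeR or DESeq2, where edgeR called 4.07% of all genes and 3 of the 10 (Vim, Zeb1 and Zeb2) had an unadjusted p under 0.05. At d2.5, Snai1 and Vim were higher in Nr6a1-/- cells (6.45% of all genes called), and at d3 and d4 Vim was the only one (10.8% and 18.9%). At d4G, 4 of the 10 genes were called, Snai1 and Vim as higher and Cdh1 and Epcam as lower, beside 7.90% of all genes. The interaction of genotype with the d2 to d3 change was called for 0 of them (2.27% of all genes), with Snai1 alone under an unadjusted p of 0.05. That in the change from d3 to d4 was called for 2, Vim and Epcam (5.72%). That in the Gdf11 response was called for 0 (2.66%), with Cdh1 and Vim under an unadjusted p of 0.05. DESeq2 also called 0 of the 10 in the first and the last of these comparisons.

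**Figure D3:**
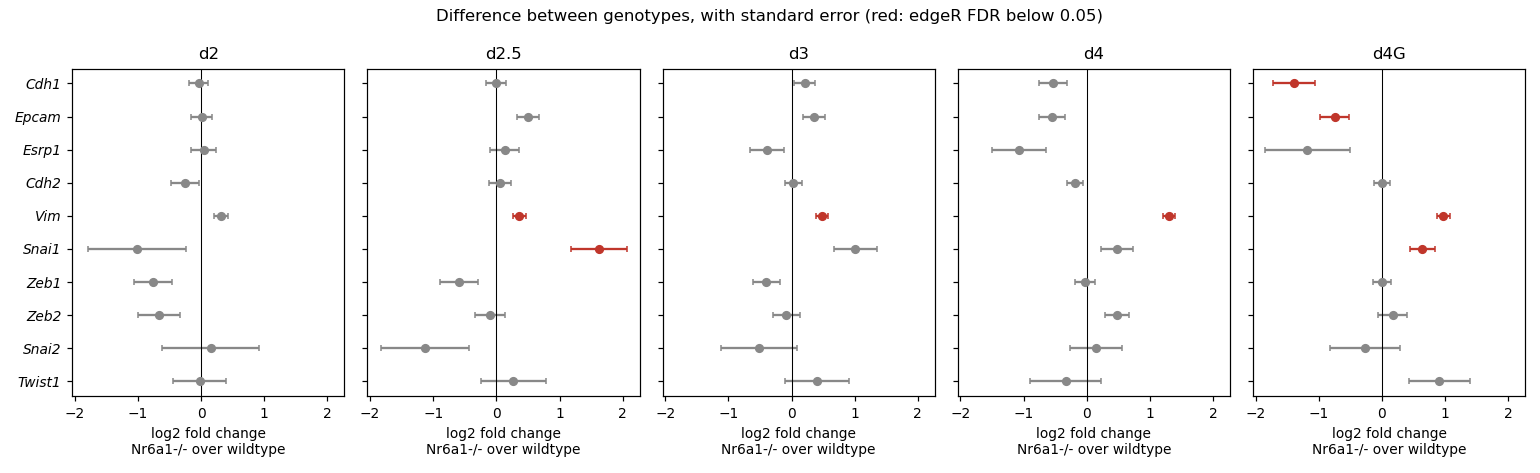
Log2 fold change of Nr6a1-/- over wildtype cells (x axis) with its standard error, for the 10 genes (rows) at each of the 5 stages (panels), red where the edgeR FDR is below 0.05. Vim is called at d2.5, d3, d4 and d4G, Snai1 at d2.5 and d4G, and Cdh1 (-1.39) and Epcam (-0.75) at d4G, while Cdh2 stays near 0 throughout.

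Cdh1 and Epcam differed between genotypes in the presence of Gdf11, whereas Esrp1 did not pass the test (-1.18, edgeR FDR 0.351). At d4G, the wildtype libraries had 17.2, 19.5 and 19.8 CPM of Cdh1 and the Nr6a1-/- libraries 7.21, 5.73 and 8.15 CPM, from 132 and 43 counts over each group of 3. All Nr6a1-/- libraries were below all wildtype libraries, at 0.382-fold (-1.39 on the log2 scale, SE 0.334, edgeR FDR 0.00487), and the call held in all 11 alternatives (edgeR FDR up to 0.0261). For Epcam the wildtype libraries had 79.1, 56.4 and 70.4 CPM and the Nr6a1-/- libraries 47.1, 38.2 and 36.5 CPM. They did not overlap either (0.594-fold, SE 0.234 on the log2 scale, edgeR FDR 0.0390), although the Epcam call was lost without wildtype replicate 1 or 3 or Nr6a1-/- replicate 2 or 3 (edgeR FDR up to 0.153). Markers of definitive endoderm, an epithelium that carries Cdh1 and Epcam, were also lower. The 5 markers (Sox17, Foxa2, Cer1, Trh and Gata6) summed to 50.6 to 64.2 CPM in wildtype and 4.33 to 9.87 CPM in Nr6a1-/- libraries at d4G, and to 49.7 to 58.9 and 5.54 to 11.1 CPM at d4, with Cer1 at 0 in all groups. The NMP marker sum was lower at d4G as well, at 150 to 165 CPM in Nr6a1-/- against 239 to 242 CPM in wildtype libraries. T made up most of it, at means of 110 CPM in Nr6a1-/- and 159 CPM in wildtype libraries. Sox2, at 6.57 and 19.8 CPM, and Cdx2 were lower too. Nkx1-2 was not lower, at 19.1 CPM in Nr6a1-/- and 16.3 CPM in wildtype libraries. The part of both sets of markers in the Cdh1 and Epcam differences was not tested.

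At d4, the values of these genes turned on 1 library. Cdh1 was at 22.2, 57.2 and 22.2 CPM in the wildtype libraries of replicates 1 to 3 and at 26.0, 20.3 and 25.6 CPM in the Nr6a1-/- libraries, and Epcam was at 67.1, 157 and 61.5 CPM against 68.4, 58.5 and 70.7 CPM. Wildtype replicate 2, the library with the high epiblast marker sum, was the highest of the 6 in both, and in Esrp1 as well (9.39 CPM, against 1.70 to 4.20 CPM in the others). With it, Cdh1 and Epcam at d4 differed by -0.54 and -0.55 (edgeR FDR 0.0855 and 0.0506), and each difference was called without wildtype replicate 1 or 3 or with no filter on low counts, and that of Epcam with RLE factors as well (edgeR FDR as low as 0.00541 and 3.38e-05 over 11 alternatives). Without replicate 2 the differences were 0.10 for Cdh1 (SE 0.166, edgeR FDR 0.755) and 0.03 for Epcam (SE 0.144, edgeR FDR 0.936). In that fit 1 of the 10 genes, Vim, was called between genotypes at d4, beside 15.1% of all genes, and the step from d3 to d4 in wildtype cells had 3 rises and 4 falls, beside 19.3%.

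The Gdf11 response of the epithelial genes depended on the same library. In wildtype cells Cdh1 fell by 0.89 on the log2 scale from d4 to d4G with all libraries (SE 0.230, edgeR FDR 0.00328), and the value was -0.24 without d4 wildtype replicate 2 (SE 0.171, edgeR FDR 0.356). Epcam went from -0.50 (edgeR FDR 0.0566) to 0.09 (edgeR FDR 0.712), and Esrp1 from -1.12 (edgeR FDR 0.0424) to -0.52 (edgeR FDR 0.466). In Nr6a1-/- cells Cdh1 fell to 0.300-fold (-1.74, SE 0.321, edgeR FDR 1.09e-04) and Epcam to 0.616-fold (-0.70, SE 0.236, edgeR FDR 0.0339), the latter lost without d4 replicate 1 or 3 or d4G replicate 2 or 3 of that genotype (edgeR FDR up to 0.138). The Esrp1 call in wildtype cells was also lost without any d4G wildtype library and in a fit of the 2 groups alone, as was that of Cdh1 in the latter fit (edgeR FDR up to 0.466 and 0.356 over 11 alternatives).

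The difference between the genotypes in this response was -0.85 for Cdh1 (SE 0.409, edgeR FDR 0.318) and -0.20 for Epcam (SE 0.311, edgeR FDR 0.839) with all libraries. Without d4 wildtype replicate 2 it was -1.50 for Cdh1 (SE 0.268, edgeR FDR 5.31e-04) and -0.79 for Epcam (SE 0.204, edgeR FDR 0.0272), and both were called. For Esrp1 it was -0.11 (edgeR FDR 0.971) with all libraries and -0.72 (edgeR FDR 0.746) without d4 wildtype replicate 2. In that fit 2 of the 10 genes were called for this difference, beside 2.34% of all genes, and 3 genes, Snai1, Vim and Zeb1, were called in the wildtype response, beside 23.4%. The difference in the change from d3 to d4 was called for Vim alone (0.76, edgeR FDR 0.00134, beside 4.45% of all genes). That of Epcam went from -0.91 (edgeR FDR 0.0359) to -0.33 (edgeR FDR 0.344), and that of Esrp1 from -0.68 (edgeR FDR 0.495) to -0.09 (edgeR FDR 0.963). The Epcam call was lost in 9 of 17 alternatives, among them DESeq2, a fit of the 4 groups alone and the removal of d3 wildtype replicate 1 or 2, d3 Nr6a1-/- replicate 2 or 3 or d4 Nr6a1-/- replicate 2 or 3.

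**Figure D4:**
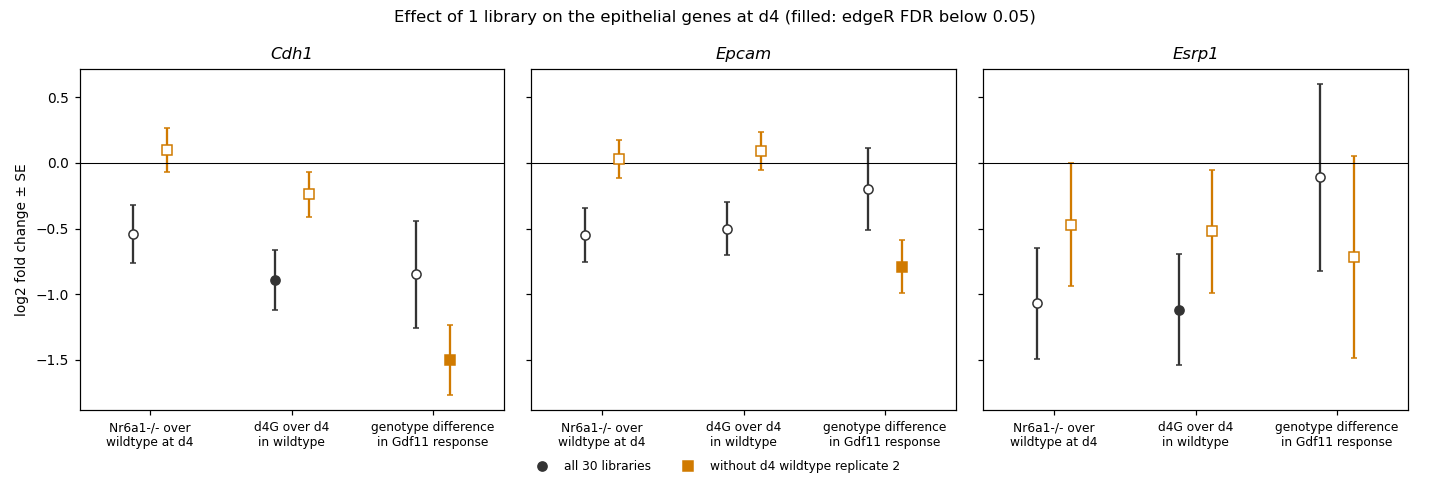
Log2 fold change with its standard error for Cdh1, Epcam and Esrp1 (panels) in 3 comparisons that use d4, with all 30 libraries (dark circles) and without d4 wildtype replicate 2 (orange squares), filled where the edgeR FDR is below 0.05. Leaving out the library moves Cdh1 and Epcam at d4 from -0.54 and -0.55 to 0.10 and 0.03, and moves the genotype difference in the Gdf11 response to -1.50 and -0.79.

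Cdh1 lies on chromosome 8 (GRCm38, 106603351 to 106670246, plus strand), whose genes were lower as a block in the Nr6a1-/- clone. The median log2 fold change of its 655 tested genes was -0.38, -0.38, -0.37, -0.29 and -0.31 at d2, d2.5, d3, d4 and d4G, against medians between 0.00487 and 0.0338 over the other chromosomes. Cdh1 did not follow the block at the first 3 stages. It stood at -0.04 at d2, -7.52e-04 at d2.5 and 0.21 at d3, above 86.0%, 84.3% and 93.9% of the chromosome's genes. At d4G, at -1.39, it was 1.08 below the chromosome's median, and 4.43% of its genes were lower still. The 17 other tested genes within 500000 bases had medians of -0.56, -0.45, -0.42, -0.26 and -0.23 over the 5 stages. Of these, 8, 7, 9, 6 and 6 were called lower and none higher. The neighbouring P-cadherin gene Cdh3 was called lower at d3 (-0.89, edgeR FDR 0.0110) and not at d4G (-0.20, edgeR FDR 0.666), and the sphingomyelinase gene Smpd3 was the lowest neighbour at d4G (-2.04, edgeR FDR 2.77e-05). Whether the block bears on Cdh1 was not tested. The chromosomes of the other 9 genes had medians between -0.0193 and 0.0721.

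**Figure D5:**
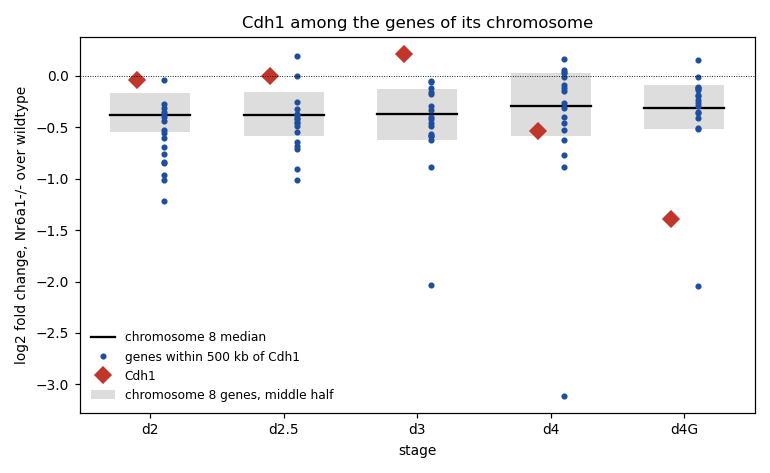
Log2 fold change of Nr6a1-/- over wildtype cells by stage for Cdh1 (red diamonds), for the 17 other tested genes within 500000 bases of it (blue points) and for all 655 tested genes of chromosome 8 (grey box from the lower to the upper quartile, black line at the median). The chromosome's median lies between -0.38 and -0.29 at every stage, while Cdh1 goes from 0.21 at d3 to -1.39 at d4G.

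Other genes of the epithelium were followed in a list of 32, of which 30 were tested. In Nr6a1-/- against wildtype cells, 3 were higher with 0 lower at d2, 1 higher with 2 lower at d2.5, 0 with 7 at d3, 2 with 10 at d4 and 0 with 10 at d4G, beside 4.07%, 6.45%, 10.8%, 18.9% and 7.90% of all tested genes called in either direction. Their median log2 fold change went from 0.21 at d2 to -0.15, -0.41, -0.63 and -0.88, beside medians of all genes between -0.00859 and 0.0179. Definitive endoderm markers were lower in Nr6a1-/- libraries at d2, where the list's median was above 0, and at d2.5 and d3. They summed to 57.5 to 72.2 CPM in wildtype and 43.8 to 48.6 CPM in Nr6a1-/- libraries at d2. At d2.5 the sums were 248 to 266 and 160 to 184 CPM, and at d3 89.3 to 96.8 and 20.1 to 23.3 CPM. Trh made up most of them, with wildtype means of 51.0, 238 and 62.9 CPM at d2, d2.5 and d3. Its Nr6a1-/- means were 45.3, 171 and 17.1 CPM. Sox17 averaged 5.04, 14.3 and 20.7 CPM in wildtype and 0.789, 1.13 and 1.25 CPM in Nr6a1-/- libraries. The part of these markers in the list's values was not tested. Of the called genes of the list, those with the largest changes were Dsg2, a desmosomal cadherin, at d2 (2.03-fold, edgeR FDR 0.00828), the transcription factor gene Grhl2 at d2.5 (2.13-fold, edgeR FDR 0.00746) and the keratin gene Krt18 at d3 (0.457-fold, edgeR FDR 6.33e-10). Krt8, the partner keratin, was the lowest of the called genes at d2.5 (0.639-fold, edgeR FDR 0.00501). Ovol2, a repressor of the transition, was counted 20 times over the wildtype and 0 times over the Nr6a1-/- libraries at d4, at least 4.85-fold lower at a floor of 3 counts over the group. The wildtype count of Ovol2 takes in d4 wildtype replicate 2, and no bound without that library was computed. Rab25 was counted 10 and 0 times at d4G, at least 2.85-fold lower, and the list medians were the same with such genes at their bounds. Without d4 wildtype replicate 2 the counts at d4 were 0 higher and 9 lower, beside 15.1% of all genes called. The 2 higher genes, Grhl3 and Dsp, were thus lost. From d3 to d4, 17 of the 30 fell and 1 rose in wildtype cells, beside 21.1% of all genes called in either direction. Without that library 19 fell and 1 rose, beside 19.3%. In Nr6a1-/- cells 22 fell and 2 rose, beside 25.9%.

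The mesenchymal list of 24 genes, 19 of them tested, moved in both directions between genotypes. In Nr6a1-/- cells, 1 was higher with 2 lower at d2, 2 with 2 at d2.5, 1 with 4 at d3, 3 with 4 at d4 (2 with 4 without d4 wildtype replicate 2) and 2 with 3 at d4G, beside the same shares of all genes as above, and the medians at d4 and d4G were -0.16 and 0.01. Among called genes, Sparc, a matrix glycoprotein gene, was the lowest at d4 (0.189-fold, 32.3 against 171 CPM, edgeR FDR 7.21e-17) and the transcription factor gene Foxc2 the highest (2.03-fold, edgeR FDR 0.0117). Tagln, an actin-binding protein gene, was the highest called gene at d2, d2.5 and d4G (2.88-fold, 1.99-fold and 2.59-fold, edgeR FDR 7.19e-06, 0.00117 and 3.72e-05). Within each genotype, Gdf11 was followed by 10 rises and 2 falls in wildtype cells (median 0.69) and by 12 rises and 4 falls in Nr6a1-/- cells (median 0.94), beside 28.8% and 18.0% of all genes called and medians of all genes of 0.0203 and -0.0185. Among 7 tested genes of the catenins and their partners, which tie cadherins to actin, 1 was called between genotypes, Ctnnd2 at d3 (0.349-fold, edgeR FDR 0.00354), and 0 at the other stages by edgeR (with 1, 0, 2 and 3 under an unadjusted p of 0.05 at d2, d2.5, d4 and d4G). Of 5 other cadherins tested, which include Cdh3, 0 were called at d2 and d2.5 (edgeR, with 1 and 0 under an unadjusted p of 0.05). Cdh6 and Cdh11 were lower at d4 (0.370-fold and 0.319-fold, edgeR FDR 0.00194 and 0.00848) and at d4G (0.0771-fold and 0.505-fold, edgeR FDR 5.83e-08 and 0.00430). Cdh13 was higher at d4G (7.31-fold, edgeR FDR 6.38e-04). Both of these small lists stand beside the same shares of all genes called at each stage as above. Cdh3 lies beside Cdh1 on chromosome 8, whose genes were lower as a block. The part of that block in the cadherin and mesenchymal lists was not tested.

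Regulators of the primitive streak, which act upstream of Snai1 in the embryo or beside it, formed a list of 13 genes, 12 of them tested. In Nr6a1-/- cells, 6 were higher with 1 lower at d4, where 18.9% of all genes were called and the list's median was 0.72. The corresponding pairs of counts were 0 with 0 at d2 (edgeR, with 1 under an unadjusted p of 0.05), 2 with 0 at d2.5, 2 with 1 at d3 and 3 with 2 at d4G. The shares of all tested genes called at these stages were 4.07%, 6.45%, 10.8% and 7.90%. Mesp1, a mesoderm transcription factor gene, averaged 0.345 CPM over the wildtype and 9.71 CPM over the Nr6a1-/- libraries at d4 (edgeR FDR 7.28e-07). Mixl1 was 4.96-fold, Lhx1 2.77-fold, Tbx6 1.99-fold, Fgfr1 1.69-fold and T 1.61-fold higher at d4 (edgeR FDR 1.09e-10, 0.00512, 1.87e-08, 7.63e-05 and 6.15e-06). Fgf8, a ligand of the growth zone, was lower at d3, d4 and d4G (0.739-fold, 0.498-fold and 0.419-fold, edgeR FDR 0.0208, 2.85e-07 and 4.97e-06). Without d4 wildtype replicate 2 the d4 counts were 6 higher and 1 lower as well, beside 15.1% of all genes called.

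Across the 30 libraries, the genes whose log2 CPM most resembled that of Cdh1 were Epcam (r = 0.979), Chchd10 (0.975), Esrp1 (0.970), Ina (0.970) and Gstt2 (0.969), out of 9730 genes compared. The pattern of Cdh2 was closest to those of Hoxb4 (0.973), Hoxb6 (0.970), Hoxb7 (0.968), Cited1 (0.964) and Gm45889 (0.960), and that of Snai1 to Tcf4 (0.952), Pdlim4 (0.942), Trps1 (0.940), Zfp36l1 (0.933) and Ube2e3 (0.928). These are Pearson correlations over libraries of 10 groups that share the stage course, and are given as a description.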

How the data were processed

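RNA was sequenced as pooled 3′ end libraries with an index added at poly(A) priming. Per the labels, reads were handled with STAR and edgeR on mm10, with no versions given. The deposited values are raw counts per gene from the authors; use of molecular identifiers and of strand in counting is not given in the sources used here, so floors cover counting error only. The authors' differential expression tables (fold changes and p-values) were not used.

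Here counts were scaled by TMM and fitted with edgeR 4.0.16 (R 4.3.3; glmQLFit and glmQLFTest, 10 groups, 20 residual degrees of freedom) on 12149 genes with a count above 10 and CPM above 2 in at least 2 libraries of 1 group. Calls used a 2-sided FDR below 0.05; the SE is the log2 fold change divided by the root of F. CPM used TMM library sizes. Correlations used log2 CPM (prior count 2) of genes averaging 10 CPM or more in any group, and the cadherin ratio an added count of 0.5. Positions come from GENCODE M21 (GRCm38), which named 52990 of the 54134 rows. The scripts were tested on simulated data. The labels do not say that replicates came from separate cultures, so p-values measure only the spread between these libraries. Libraries of a group differed by more than sampling noise (chi-square per gene at least 1.45). The genes named are the 10 members, the genes of the lists with the largest called change in each direction (any called one in small lists) and the 5 most alike to Cdh1, Cdh2 and Snai1. The members and lists were chosen with earlier results of these data known. A marker gene of the endoderm list is not reported here and was left out of its sum. Alternatives were RLE factors, no filter, a fit of the groups compared, DESeq2 1.42.0, a replicate block, other added counts in the ratio and leaving out each library. Ranges of FDR over alternatives include the adjusted p of DESeq2.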

Additional observations from a re-analysis of the deposited data

Results flagged for a closer look

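The change from d3 to d4 differed between genotypes for Vim (interaction 0.82 on the log2 scale, edgeR FDR 1.60e-04), with a fall in all wildtype d4 libraries against all d3 libraries and overlapping stages in Nr6a1-/- cells. It differed for Epcam as well (interaction -0.91, edgeR FDR 0.0359), with a larger fall in Nr6a1-/- cells. The Epcam value was -0.33 (edgeR FDR 0.344) without d4 wildtype replicate 2, the library with the high epiblast marker sum.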

How the results depend on the processing

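No called value of the 10 genes changed sign under any alternative. Over single genes and comparisons, leaving out 1 library removed 58 calls and added 19, DESeq2 removed 4 and added 1, the fit of the groups compared alone removed 4 and added 6, no filter removed 1 and added 9, and RLE factors added 2. The number of the 10 genes called between genotypes was 3 at d3 with no filter or with the groups compared alone, and at d4 it was 2 with RLE factors and 3 with no filter. Fitting the groups compared alone gave 1398 genes called at d4, 3 of the 10 in the wildtype Gdf11 response, 440 genes and 1 of the 10 for the difference in the d3 to d4 change (1 with DESeq2 too), and 212 genes for that in the Gdf11 response. Leaving out each library in turn gave 304 to 392 genes and 0 to 1 of the 10 called at d2, 478 to 775 and 0 to 2 at d2.5, 871 to 1084 and 1 to 2 at d3, 1487 to 2625 and 1 to 4 at d4, and 2 to 3 of the 10 at d4G. It gave 3 to 6 of the 10 in the wildtype and 3 to 5 in the Nr6a1-/- Gdf11 response, 443 to 1157 genes and 1 to 3 of the 10 for the difference in the d3 to d4 change, and 205 to 823 genes and 0 to 2 of the 10 for that in the Gdf11 response. The genotype difference of the cadherin ratio then ran from -0.06 to 0.20 at d2.5 and from -0.41 to 0.48 at d4. The cause of these shifts was not tested, beyond the fewer libraries of each fit.

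Libraries with the same replicate number deviated together little (correlations of -0.111 to 0.163 over 39 pairs, with 0 of 13 comparisons above 0.1 in all pairs). Deviations from means of 3 libraries cannot exclude a weak pairing, and the main fit used none. With a replicate block, 159 of the values for single genes kept their side of the threshold, 1 call was added (Twist1 in the Nr6a1-/- Gdf11 response) and 0 were lost. Depth limits Snai2, Twist1, Esrp1 at d4G, Snai1 at d2 and Snai1 in wildtype libraries at d2.5, which lie near the floor of 3 counts.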
